A study of Homo sapiens with 12 samples.

Results

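ADAMTS proteases are secreted metalloproteases with thrombospondin repeats, and 9 of their genes were followed here in the RNA of breast cancer tissue: ADAMTS1, ADAMTS5, ADAMTS6, ADAMTS7, ADAMTS9, ADAMTS12, ADAMTS13, ADAMTS14 and ADAMTS15. They are 9 of the 19 ADAMTS genes and of the 58735 genes in the count table. The genes to be compared were those with a mean of 1 or more CPM (counts per 1e+06 counts, after TMM scaling) over all 12 libraries, which kept 8 of the 9. The compared genes were thus selected on this mean, which is given only as a description. The kept gene with the lowest mean was ADAMTS13 at 3.41 CPM, and the gene that did not pass, ADAMTS5, had 0 counts in every library. The 8 kept genes also had group means above 1 CPM in all 3 groups, so none passed through 1 group alone.

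The tissue was the triple-negative breast cancer line MDA-MB-231 marked with GFP, cast in fibrin and kept under flow in an AngioPlate, a plate with perfused wells. The 3 groups of 4 libraries were: cancer tissue alone (monoculture), next to hepatic tissue of HepG2 hepatoma cells with 2% lung fibroblasts (hepatic co-culture), and next to cardiac tissue of iPSC-derived cardiomyocytes with 2% cardiac fibroblasts (cardiac co-culture). RNA came from the cancer tissue 5 days after cancer cell seeding. The labels call the libraries biological replicates without naming cultures or seedings. A p-value therefore speaks only of the spread among them, and all of them rest on 1 cancer line.

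Total counts ran from 26.2 M to 42.4 M (M for 1e+06) per library. On the first principal component over all genes, which held 28.5% of the variance, cardiac replicate 4 lay at -24.9, inside the monoculture range of -51.1 to -22.3 and apart from the other cardiac libraries at 6.79 to 16.3. All 8 markers of the cancer line were at 1 CPM or more in every group; next to hepatic tissue CAV1 (-0.44, adjusted p = 0.000389) and S100A4 (-0.84, adjusted p = 0.00271) fell and VIM rose (0.59, adjusted p = 0.00306). Next to cardiac tissue S100A4 (-0.74, adjusted p = 0.0209), CAV1 (-0.33, adjusted p = 0.0164) and AXL (-0.32, adjusted p = 0.0336) passed, each call lost without any 1 of cardiac replicates 2 and 3 and without other single libraries (adjusted p up to 0.118). Markers of 12 fibroblast genes summed to 12.1 to 17.8 CPM in the monoculture, 13.8 to 24.5 in the hepatic and 13.8 to 14.5 in the cardiac co-culture, and the fibroblast genes POSTN and THY1 were at 0 everywhere. Hepatocyte markers summed to 60.7 to 98.8, 39.6 to 65.9 and 93.7 to 131 CPM in the same order, nearly all of it SERPINA1 and HP, and APOA2 was at 0 in every library. Other hepatocyte genes had at most 22 counts in a library. Some of them ran the other way, with means of 0.0415, 0.21 and 0.102 CPM for HNF4A and 0.0883, 0.254 and 0.0315 for AFP. Between the co-cultures HP (2.23, adjusted p = 0.00595) and SERPINA1 (0.81, adjusted p = 0.0482, lost in 9 of 12 fits without 1 library) were higher next to cardiac tissue. Cardiomyocyte markers stayed at or under 4.42 CPM in sum, mostly RYR2. MYH6 (21 counts) and MYL7 (8 counts) were seen in cardiac replicate 4 alone, and ACTN2 had 8 counts there against at most 2 elsewhere. NPPA and PLN were also highest there, at 10 and 4 counts against at most 7 and 3 elsewhere. TNNT2, TNNI3, MYL2 and NKX2-5 were not, with 2 counts each there against up to 4, 7, 13 and 5 elsewhere. RYR2 had 109 counts there against up to 124 elsewhere. MYH7 and NPPB were at 0 in the cardiac co-culture.

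ADAMTS enzymes are made as inactive precursors, cleaved by furin-type convertases and released into the matrix, where their ancillary domains direct them to substrates. By substrate they fall into groups: ADAMTS1, ADAMTS5, ADAMTS9 and ADAMTS15 cut the large proteoglycans aggrecan and versican, ADAMTS7 and ADAMTS12 cut cartilage oligomeric matrix protein, ADAMTS14 removes the amino propeptide of fibrillar procollagens, and ADAMTS13 cuts von Willebrand factor. ADAMTS6 is a relative of ADAMTS10 and is tied to fibrillin microfibrils. Several members are studied in tumours for their effect on the matrix and on blood vessels.

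All 9 genes encode 1 copy of the zinc-binding active site, whose 33 coding bases are shown because they sort the members in part as their substrates do. Capitals mark the codons of the 3 zinc-binding histidines and of the catalytic glutamate (bases of GRCh38 read along the gene's strand, 5′ to 3′).
ADAMTS1: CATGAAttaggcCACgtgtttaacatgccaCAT
ADAMTS9: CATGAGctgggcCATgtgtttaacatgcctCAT
ADAMTS15: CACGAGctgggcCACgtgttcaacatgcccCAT
ADAMTS7: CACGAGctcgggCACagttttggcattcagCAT
ADAMTS12: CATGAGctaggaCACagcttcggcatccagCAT
ADAMTS6: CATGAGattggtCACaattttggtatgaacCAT
ADAMTS13: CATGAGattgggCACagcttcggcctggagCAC
ADAMTS14: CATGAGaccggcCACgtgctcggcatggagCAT
The 3 expressed proteoglycan-cutting members carry an asparagine codon at the eighth position of the motif, and the other 5 carry glycine there, as does ADAMTS5. Among the 55 pairs of the 11 ADAMTS genes at 1 CPM or more, the site was shared at 18 to 29 of 33 bases, with ADAMTS9 and ADAMTS15 the closest pair at 29 and ADAMTS7 and ADAMTS12 sharing 27. In every member the site is split over 2 exons by an intron. In ADAMTS9 it spans exons 8 and 9 of 40 (chr3:64651148-64654369, minus strand) and in ADAMTS15 exons 2 and 3 of 8 (chr11:130461612-130462109, plus strand). The longest exact run shared by any 2 of these 11 transcripts was 22 bases.

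Levels between genes were compared per kb of exon. ADAMTS15 was the most abundant ADAMTS transcript in all 12 libraries, with a mean of 9.22 CPM per kb in the monoculture, 5.28 beside hepatic tissue and 8.84 beside cardiac tissue. It held 40.9% ± 2.88, 28.0% ± 3.41 and 38.2% ± 4.17 (SD, n = 4) of the level summed over the 19 genes. In the monoculture ADAMTS12 came next at 3.62 CPM per kb and stood above ADAMTS9, at 1.93, in 4 of 4 libraries. From ADAMTS9 down to ADAMTS14 the order was less firm: ADAMTS9 exceeded ADAMTS6 (1.58) in only 2 of 4 libraries, and ADAMTS1 (1.40) and ADAMTS7 (1.38) also split 2 of 4.

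The order differed in the hepatic co-culture, where ADAMTS6 took the second place at 3.40 CPM per kb, above ADAMTS12 (2.63) in 3 of 4 libraries, and ADAMTS9 stood at 0.565, below 8 other members of the family. In the cardiac co-culture the first 3 places were those of the monoculture, ADAMTS15, ADAMTS12 and ADAMTS9, with ADAMTS9 (2.64) below ADAMTS12 (3.03) in 4 of 4 libraries. Summed over the family, the level was 22.6 ± 0.646, 18.8 ± 1.32 and 23.0 ± 1.95 CPM per kb (SD, n = 4) in monoculture, hepatic and cardiac co-culture. The hepatic libraries, at 17.6 to 20.3, lay below all monoculture libraries, at 21.6 to 23.1, and all cardiac libraries, at 20.9 to 25.4.

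**Figure D1:**
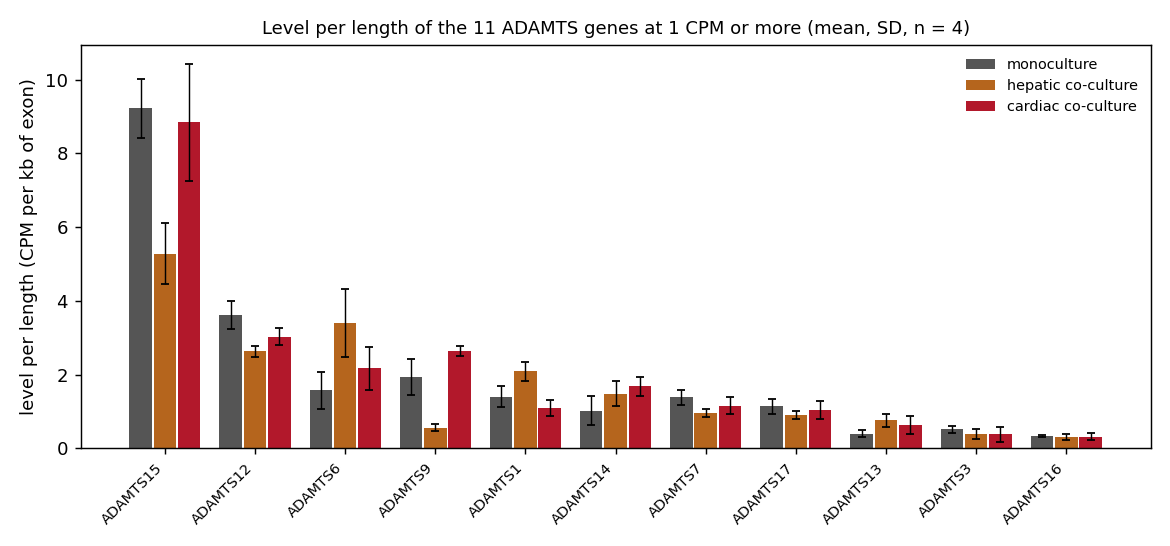
Mean level of the 11 ADAMTS genes at 1 CPM or more, in CPM per kb of exon, with SD bars over 4 libraries, for monoculture, hepatic and cardiac co-culture. ADAMTS15 is the tallest in each group, and ADAMTS9 is at 0.565 in the hepatic co-culture against 1.93 and 2.64 in the other groups.

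Next to hepatic tissue, 7 of the 8 compared genes differed from the monoculture at an adjusted p under 0.05: ADAMTS9, ADAMTS15, ADAMTS12 and ADAMTS7 fell, and ADAMTS6, ADAMTS13 and ADAMTS1 rose. Of all 17468 genes tested, 28.0% were called in this comparison, 14.4% higher and 13.6% lower. The median log2 fold change of the 8 genes was 0.04, beside 0.01 over all genes tested, since members moved both ways. Each p comes from the quasi-likelihood test of edgeR, adjusted by Benjamini-Hochberg over the genes tested, and errors of log2 fold changes are standard errors. In bulk RNA, fewer cells of a type and less RNA per cell cannot be told apart.

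The proteoglycan-cutting members moved in both directions. ADAMTS9 (chr3:64515654-64688000), which cuts versican and aggrecan, stood at 13.8, 24.0, 19.3 and 25.1 CPM in monoculture replicates 1 to 4, at 6.85, 4.94, 5.38 and 6.96 beside hepatic tissue and at 26.9, 30.5, 28.2 and 27.3 beside cardiac tissue. All hepatic libraries lay below all others, and all cardiac libraries lay above all monoculture libraries. Against the monoculture it fell by 1.78 ± 0.16 on the log2 scale next to hepatic tissue, 3.43-fold (adjusted p = 1.38e-06), and this change ranked 329 by size among the genes tested.

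ADAMTS15 (chr11:130448974-130476641), a versican-cutting enzyme, was at 49.4, 47.7, 57.4 and 54.8 CPM in the monoculture, 35.8, 30.1, 24.4 and 29.6 beside hepatic tissue and 44.1, 46.0, 46.9 and 63.5 beside cardiac tissue. Hepatic libraries were the lowest of the 12, and the single highest value was that of cardiac replicate 4. The hepatic difference was -0.80 ± 0.12 (adjusted p = 0.000167).

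ADAMTS1 (chr21:26835747-26845409), the first member of the family to be described and also a versican and aggrecan protease, went the other way. Its levels were 12.9, 8.58, 8.89 and 9.16 CPM in the monoculture, 15.2, 16.3, 15.4 and 12.2 beside hepatic tissue and 5.75, 9.37, 8.30 and 7.66 beside cardiac tissue. Monoculture replicate 1 stood above its 3 partners and above hepatic replicate 4, so those groups overlapped. ADAMTS1 rose by 0.58 ± 0.16 next to hepatic tissue (adjusted p = 0.0102). ADAMTS5, an aggrecanase of cartilage, had 0 counts in all libraries, which by 3 counts over each group's total allows at most 0.0198, 0.0234 and 0.0240 CPM in monoculture, hepatic and cardiac co-culture (counting error only).

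Both members that cut cartilage oligomeric matrix protein were lower next to hepatic tissue. ADAMTS12 (chr5:33523535-33892192) was at 32.9, 33.1, 40.8 and 34.9 CPM in the monoculture, 27.5, 26.1, 25 and 24.3 beside hepatic tissue and 27.9, 28.1, 29.6 and 32.8 beside cardiac tissue. The 3 groups did not overlap, with the cardiac libraries between the others. The gaps were small: cardiac replicate 4 (32.8) lay just under monoculture replicate 1 (32.9), and cardiac replicate 1 (27.9) just above hepatic replicate 1 (27.5). The hepatic fall was -0.46 ± 0.09 (adjusted p = 0.00105).

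ADAMTS7 (chr15:78759203-78811431) read 10.5, 9.93, 12.9 and 9.25 CPM in the monoculture, 8.43, 7.63, 6.88 and 6.58 beside hepatic tissue and 7.07, 9.63, 7.88 and 11.2 beside cardiac tissue. Its hepatic libraries lay below all monoculture libraries, and the cardiac ones spanned both. The hepatic fall of -0.53 ± 0.16 (adjusted p = 0.0169) no longer passed without monoculture replicate 3 (-0.43, adjusted p = 0.0688) or without hepatic replicate 3 (-0.50, adjusted p = 0.0506). ADAMTS7 counts are uncertain, since 12.7% of its 5490-base transcript lies in exact runs of 100 bases or more, up to 337, shared with the pseudogene ADAMTS7P3, which had 2 to 15 counts per library against 172 to 559 of ADAMTS7.

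ADAMTS6 (chr5:65148736-65481920) had the largest rise of the members. It stood at 14.4, 19.3, 10.2 and 10.3 CPM in the monoculture, 19.7, 39.3, 28.6 and 28.7 beside hepatic tissue and 23.7, 20.1, 18.9 and 11.7 beside cardiac tissue. Hepatic libraries were all above the monoculture, though hepatic replicate 1 exceeded monoculture replicate 2 by little. The hepatic rise was 1.11 ± 0.28, or 2.15-fold (adjusted p = 0.0136).

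ADAMTS13 (chr9:133414358-133459402), the von Willebrand factor protease of plasma, was low, at 1.69, 2.88, 2.35 and 2.22 CPM in the monoculture, 5.75, 3.28, 4.25 and 4.17 beside hepatic tissue and 2.42, 5.4, 3.85 and 2.66 beside cardiac tissue. The hepatic and monoculture libraries did not overlap, and the cardiac ones reached into both. Next to hepatic tissue it rose by 0.93 ± 0.26 (adjusted p = 0.0119). Liver is its main source in the body, and beside this rise the summed hepatocyte markers of the hepatic libraries, 39.6 to 65.9 CPM, overlapped the lower end of the monoculture, 60.7 to 98.8. That sum is carried by SERPINA1 and by HP, which fell next to hepatic tissue (-1.97 ± 0.36, adjusted p = 0.00307). HNF4A, AFP, TF and APOA1 had higher means next to hepatic tissue than in the monoculture, all under 0.3 CPM. ALB did not, with 14, 8, 2 and 0 counts in the monoculture and 0, 5, 6 and 2 beside hepatic tissue. TF was not particular to hepatic tissue, at 0.153 to 0.411 CPM there and 0.113 to 0.519 beside cardiac tissue. The part of RNA from hepatic tissue in the ADAMTS13 rise was not tested.

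ADAMTS14 (chr10:70672803-70762441), a procollagen amino-propeptidase, was the member that did not pass. It read 4.98, 6.76, 2.56 and 7.14 CPM in the monoculture, 8.61, 9.94, 6.61 and 6.08 beside hepatic tissue and 8.83, 9.52, 6.90 and 10.1 beside cardiac tissue. Monoculture replicate 3 was the lowest of all, and the groups overlapped. The hepatic difference was 0.55 ± 0.26 (adjusted p = 0.125).

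**Figure D2:**
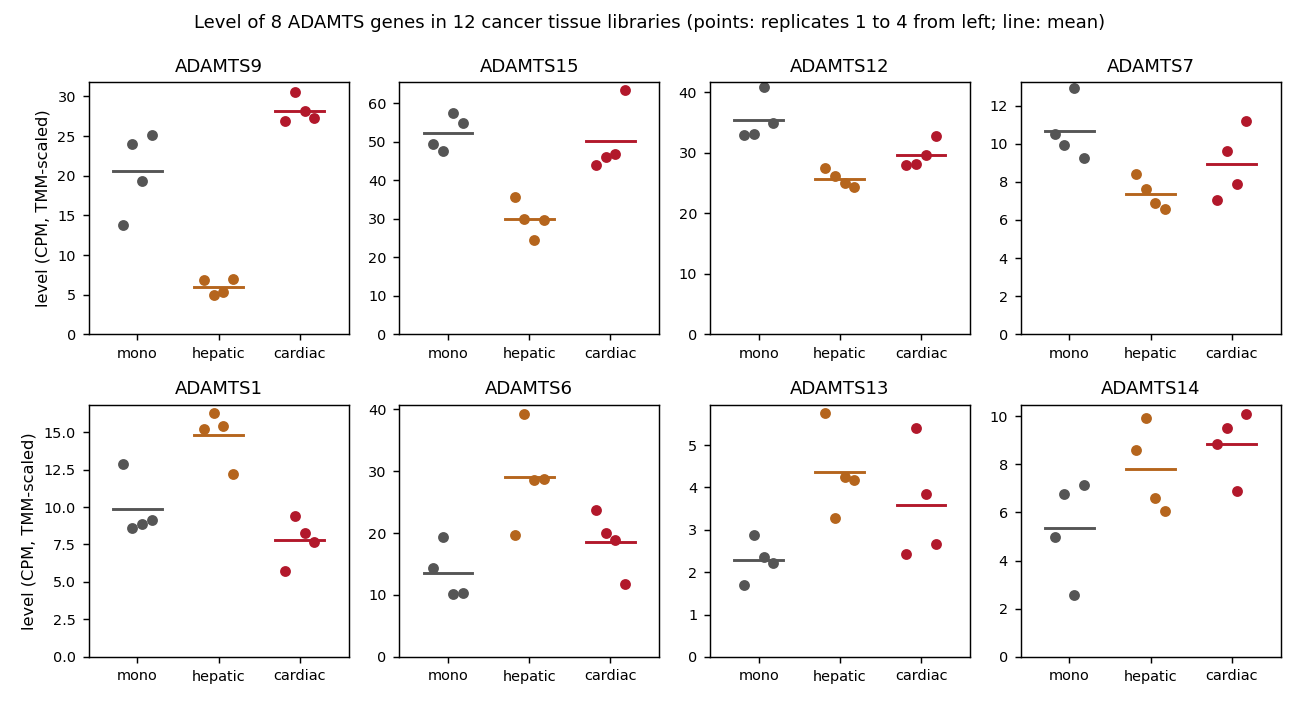
Level of the 8 compared ADAMTS genes in CPM in each of the 12 libraries, with replicates 1 to 4 from left to right in each group and a line at the group mean. ADAMTS9 at 4.94 to 6.96 CPM in the hepatic co-culture is below every other library, and ADAMTS15 at 63.5 in cardiac replicate 4 stands above its group.

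The other family members stood outside the list. ADAMTS17, ADAMTS3 and ADAMTS16 had means of 8.49, 3.04 and 1.86 CPM, ADAMTS4 had 0.259, and all 4 were tested and called in no comparison with all libraries. ADAMTS8, ADAMTS2, ADAMTS20, ADAMTS10 and ADAMTS18 had between 33 and 1 counts over all 12 libraries, and ADAMTS19 had 0. Of the 3 procollagen propeptidases, ADAMTS2, ADAMTS3 and ADAMTS14, the cancer tissue held mainly ADAMTS14, at 1.02 to 1.68 CPM per kb in group means against 0.378 to 0.515 for ADAMTS3. In the monoculture this order held in 3 of 4 libraries, and replicate 3 had 0.486 of ADAMTS14 against 0.644 of ADAMTS3.

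Next to cardiac tissue, none of the 8 genes passed against the monoculture, where 8.26% of all genes tested were called, 4.93% higher and 3.33% lower. That is 862 genes higher and 581 lower, or 1076 and 414 with upper-quartile scaling. At an unadjusted p under 0.05, 3 of the 8 were higher and 2 lower, beside 25.7% of all genes, 13.8% higher and 11.9% lower. DESeq2's Wald test called 3 of the 8, beside 15.7% of the genes to which it gave an adjusted p. The median over the 8 was 0.20, against 0.01 over all genes tested. The same monoculture libraries served both comparisons.

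ADAMTS9 differed by 0.46 ± 0.15 next to cardiac tissue (adjusted p = 0.0705; 0.0346 by DESeq2), with no overlap between the groups. ADAMTS14 differed by 0.72 ± 0.26 (adjusted p = 0.0906; 0.0297 by DESeq2), with overlap. ADAMTS12 differed by -0.26 ± 0.09 (adjusted p = 0.0776, and 0.0454 by DESeq2). Its groups did not overlap, but only by 32.8 against 32.9 CPM. ADAMTS12 passed in edgeR when cardiac replicate 4, the library that lay among the monoculture libraries, was left out (-0.31, adjusted p = 0.0238). ADAMTS13 was at 0.64 ± 0.26 (adjusted p = 0.126), ADAMTS6 at 0.45 ± 0.28 (adjusted p = 0.346) and ADAMTS1 at -0.34 ± 0.16 (adjusted p = 0.186). ADAMTS15 was nearest to 0, at -0.06 with a 95% interval of -0.31 to 0.19, and ADAMTS7 was at -0.25, with -0.57 to 0.08.

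Between the co-cultures, 3 of the 8 genes passed, where 6.18% of all genes tested were called, 3.27% higher and 2.91% lower next to cardiac tissue. All 3 were the proteoglycan-cutting members. ADAMTS9 was higher next to cardiac than next to hepatic tissue by 2.23 ± 0.17, or 4.70-fold (adjusted p = 1.71e-07), and this difference ranked 75 by size among the 17468 genes. ADAMTS15 was higher by 0.74 ± 0.12 (adjusted p = 0.000953) and ADAMTS1 lower by 0.93 ± 0.16 on the log2 scale (log2 -0.93, adjusted p = 0.00129), each without overlap between the groups. All 3 calls held in each of the 12 fits that left out 1 library, cardiac replicate 4 included. This test is also the test that the hepatic and cardiac effects against the shared monoculture differ. For the other 5 it did not pass: ADAMTS6 was at -0.65 (adjusted p = 0.211), ADAMTS7 at 0.28 (adjusted p = 0.336), ADAMTS12 at 0.20 (adjusted p = 0.205), ADAMTS13 at -0.29 (adjusted p = 0.582) and ADAMTS14 at 0.17 (adjusted p = 0.768).

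**Figure D3:**
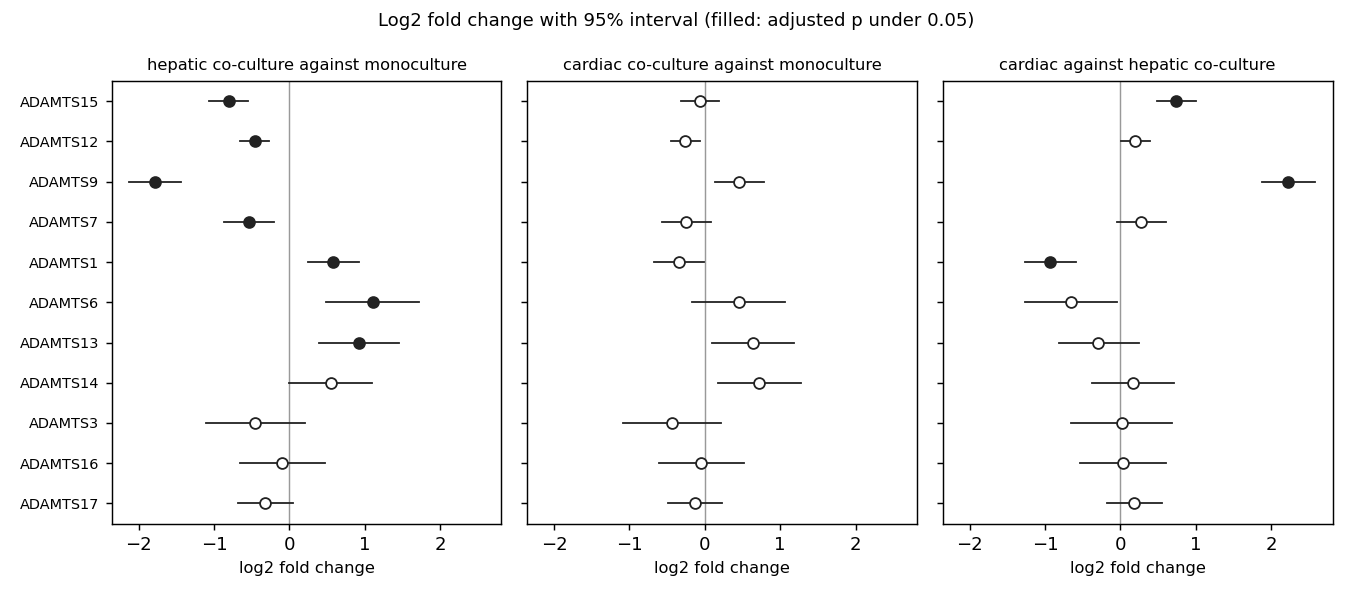
Log2 fold change with its 95% interval for the 11 ADAMTS genes at 1 CPM or more in the 3 comparisons, with filled points at an adjusted p under 0.05. Of the compared genes, 7 are filled against the monoculture next to hepatic tissue, 0 next to cardiac tissue, and 3 between the co-cultures, led by ADAMTS9 at 2.23.

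Within groups, the same libraries were high for several members. Monoculture replicate 3 had the highest ADAMTS7, ADAMTS12 and ADAMTS15 of its group (12.9, 40.8 and 57.4 CPM) and the lowest ADAMTS6 and ADAMTS14 (10.2 and 2.56). Cardiac replicate 4 had the highest ADAMTS7, ADAMTS12 and ADAMTS15 of its group (11.2, 32.8 and 63.5 CPM) and the lowest ADAMTS6 (11.7), but also the highest ADAMTS14 (10.1), opposite to monoculture replicate 3. ADAMTS9 did not share this order either, with its highest cardiac value in replicate 2. The part of these libraries' position on the first principal component in the values was not tested.

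RefSeq's promoter windows (250 bases before to 50 after the start that RefSeq gives, GRCh38.p14) include 5 of the 9 genes. Those of ADAMTS12 and ADAMTS7, which both fell next to hepatic tissue, and of ADAMTS6, which rose, are shown on the gene's strand. Capitals mark matches, on either strand, to 6 motifs. They are the GC box, spelled GGGCGG, the CCAAT box, the TATA box with the letters TATAAA, an AP-1-type site with TGANTCA, the core of a hypoxia response element with ACGTG, and a TEAD-type site with CATTCC.
ADAMTS12: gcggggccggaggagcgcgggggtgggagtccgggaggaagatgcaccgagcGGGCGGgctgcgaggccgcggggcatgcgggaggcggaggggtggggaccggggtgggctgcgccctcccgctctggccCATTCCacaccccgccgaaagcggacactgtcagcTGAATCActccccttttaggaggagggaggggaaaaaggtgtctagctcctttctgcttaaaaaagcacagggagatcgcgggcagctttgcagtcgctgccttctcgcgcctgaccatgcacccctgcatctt
ADAMTS7: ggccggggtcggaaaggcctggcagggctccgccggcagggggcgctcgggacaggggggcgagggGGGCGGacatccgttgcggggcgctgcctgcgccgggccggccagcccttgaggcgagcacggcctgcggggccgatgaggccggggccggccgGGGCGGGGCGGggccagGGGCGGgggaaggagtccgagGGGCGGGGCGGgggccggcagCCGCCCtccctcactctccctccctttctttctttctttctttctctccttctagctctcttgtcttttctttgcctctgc
ADAMTS6: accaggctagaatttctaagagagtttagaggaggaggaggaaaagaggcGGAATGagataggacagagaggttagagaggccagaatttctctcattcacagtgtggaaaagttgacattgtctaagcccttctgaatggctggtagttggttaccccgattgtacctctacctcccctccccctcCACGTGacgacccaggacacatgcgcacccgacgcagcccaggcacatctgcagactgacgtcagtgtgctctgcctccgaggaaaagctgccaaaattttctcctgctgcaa
The windows lie at chr5:33891941-33892240, chr15:78811415-78811714 and chr5:65481871-65482170, all on the minus strand. ADAMTS7 holds 7 GC boxes in a window of 74.3% GC, ADAMTS12 holds 1 in 67.0% GC, and ADAMTS6 holds 0 in 52.0% GC. The median is 58.7% over 35116 promoters, 45% of which hold the GC box. GC boxes did not follow direction: the window of ADAMTS13, which also rose, holds 2 in 60.3% GC. That of ADAMTS14, which was not called, holds 5 in 79.7% GC. These 2 windows are not at the gene starts of GENCODE given above. The ADAMTS13 window (chr9:133422117-133422416) lies inside the gene, and that of ADAMTS14 (chr10:70672256-70672555) ends before it. ADAMTS12 has 1 match to TGANTCA, 84 bases before the start, which 7.71% of promoters hold, and 1 to CATTCC, which 14.0% hold. ADAMTS6 has 1 CATTCC on the other strand and a palindrome, CACGTG, that reads as ACGTG on both strands, a core that 21.4% of promoters hold. None of the 3 windows holds CCAAT or TATAAA, which are in 34.6% and 11.5% of promoters. Matches are descriptions of these letters, with no binding measured here.

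The transcripts of several classical substrates were near 0 in this tissue and others were not. Aggrecan and cartilage oligomeric matrix protein had at most 5 and 1 counts per library, and versican (VCAN) had means of 0.380, 0.257 and 0.218 CPM in monoculture, hepatic and cardiac co-culture. Fibrillin-1 (FBN1) had means of 123, 102 and 132 CPM, and the procollagen gene COL1A1 5.95, 8.49 and 6.05. Of the 9 tested proteoglycans and hyaluronan partners, 3 rose and 1 fell next to hepatic tissue (median 0.31 against 0.01 over all genes tested), beside 28.0% of all genes called. DCN, the collagen-binding proteoglycan decorin, read 0.913, 2.76, 2.86 and 3.39 CPM in the monoculture and 0.282, 0.425, 0.137 and 0.268 in the hepatic co-culture, a fall of -3.10 ± 0.42 (adjusted p = 3.96e-05). Hepatic libraries were all the lowest, as for ADAMTS9, and the cardiac ones, at 1.32 to 2.49 CPM, were above them by 2.80 ± 0.42 (adjusted p = 0.000299). DCN is also one of the fibroblast markers, and COL1A2 and COL3A1 of that list rose next to hepatic tissue, by 1.55 ± 0.41 (adjusted p = 0.0121) and 2.84 ± 0.91 (adjusted p = 0.0257). The COL3A1 call was lost without monoculture replicate 1, 2 or 3 or hepatic replicate 2 (adjusted p up to 0.08), and the part of fibroblast RNA was not tested. HAPLN2, a link protein of hyaluronan, rose by 2.24 ± 0.64 from a mean of 0.220 CPM (adjusted p = 0.0135). SDC4, the cell-surface proteoglycan syndecan-4, rose by 0.31 ± 0.10 (adjusted p = 0.026), a call lost without monoculture replicate 1 or 3 or hepatic replicate 1, 3 or 4 (adjusted p up to 0.0866). Next to cardiac tissue 2 of the 9 rose and 0 fell (median 0.39), beside 8.26% of all genes called: SDC4 by 0.39 ± 0.10 (adjusted p = 0.0231) and HAPLN3, another link protein, by 0.42 ± 0.12 (adjusted p = 0.0419). The SDC4 call was lost without monoculture replicate 1 or 3 or cardiac replicate 1, 2 or 3 (up to 0.076), and that of HAPLN3 without any 1 monoculture library, cardiac replicate 1, 2 or 3 or hepatic replicate 2 (up to 0.162).

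Of the 12 tested glycoprotein and collagen substrates, 5 rose and 2 fell next to hepatic tissue (median 0.71), beside 28.0% of all genes called. VWF, the substrate of ADAMTS13, was among those that rose. It read 0.526, 0.791, 0.485 and 0.583 CPM in the monoculture and 1.76, 3.00, 3.70 and 2.98 beside hepatic tissue. Beside cardiac tissue it read 1.54, 1.59, 2.87 and 0.5 CPM. Hepatic libraries were all above the monoculture, by 2.26 ± 0.40 (adjusted p = 0.000496), and cardiac replicate 4 was within it. The cardiac difference of 1.44 ± 0.40 (adjusted p = 0.0362) was lost without monoculture replicate 1, 3 or 4 or cardiac replicate 1, 2 or 3 (up to 0.163) and with only the 2 groups fitted (0.058). VWF is also an endothelial marker; the 8 markers of that list summed to 11.6 to 19 CPM in the monoculture, 18.3 to 27.9 in the hepatic and 15.5 to 18.6 in the cardiac co-culture, mostly PECAM1, with ERG at 0 everywhere. Of that list TIE1, an endothelial receptor kinase, rose next to both tissues, from a mean of 0.367 CPM by 3.10 ± 0.38 (adjusted p = 1.6e-05) and 2.40 ± 0.38 (adjusted p = 0.00324), and KDR, the VEGF receptor, fell next to hepatic tissue (-1.34 ± 0.27, adjusted p = 0.00129). The part of endothelial RNA in the VWF rise was not tested.

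LTBP4, which tethers latent TGF-β to the matrix, read 148, 161, 126 and 146 CPM in the monoculture, 398, 278, 329 and 267 beside hepatic tissue and 230, 255, 232 and 187 beside cardiac tissue. All cardiac libraries lay between the other groups, and both rises passed, at 1.13 ± 0.13 (adjusted p = 2.63e-05) and 0.64 ± 0.12 (adjusted p = 0.0115). Between the co-cultures LTBP4 was at -0.49 ± 0.12 (adjusted p = 0.0298), lost without cardiac replicate 1, 3 or 4 or hepatic replicate 3 (up to 0.0813). Fibronectin (FN1) rose by 1.14 ± 0.23 next to hepatic tissue, from a mean of 7380 to 16200 CPM (adjusted p = 0.00414). It also rose next to cardiac tissue, to 13600 CPM (0.88 ± 0.23, adjusted p = 0.0405), a call not checked in other fits. Between the co-cultures it did not pass (-0.25, adjusted p = 0.595). Next to cardiac tissue 3 of these substrates rose and 2 fell (median 0.28), beside 8.26% of all genes called. THBS1, thrombospondin-1, fell next to both tissues, by -0.51 ± 0.12 beside hepatic (adjusted p = 0.00771) and -0.63 ± 0.12 beside cardiac tissue (adjusted p = 0.0125; 0.0522 without cardiac replicate 2). TFPI2, a serine protease inhibitor that ADAMTS1 can cut, was at -0.55 ± 0.13 next to cardiac tissue (adjusted p = 0.0163), lost without monoculture replicate 3 or cardiac replicate 1, 2 or 3 (up to 0.0663). Its hepatic value of -0.35 ± 0.13 (adjusted p = 0.0436) was lost with upper-quartile scaling and without monoculture replicate 2, 3 or 4, hepatic replicate 1 or 3 or cardiac replicate 3 (up to 0.152).

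Among the 11 tested genes for activation, secretion, inhibition and uptake, 2 rose and 1 fell next to hepatic tissue (median -0.05), and 1 rose next to cardiac tissue (median -0.10), shares near the 28.0% and 8.26% of all genes called. FBLN1, fibulin-1, a matrix cofactor of ADAMTS1, read 5.90, 5.03, 7.41 and 6.14 CPM in the monoculture, 0.670, 0.992, 0.959 and 0.803 beside hepatic tissue and 3.01, 4.04, 2.75 and 5.95 beside cardiac tissue. It was lowest in all hepatic libraries, opposite in direction to ADAMTS1, by -2.82 ± 0.26 against the monoculture (adjusted p = 7.88e-07) and with a cardiac excess over hepatic of 2.19 ± 0.26 (adjusted p = 2.32e-05).

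POFUT2, which adds fucose to thrombospondin repeats and is needed for secretion of several ADAMTS proteins, rose next to both tissues, by 0.59 ± 0.08 (adjusted p = 4.16e-05) and 0.41 ± 0.08 (adjusted p = 0.00841). Its libraries ran from 67.0 to 75.6 CPM in the monoculture, 99.4 to 120 in the hepatic and 86.7 to 108 in the cardiac co-culture. The coding sequences of the 8 genes hold between 2 (ADAMTS14) and 12 (ADAMTS9) matches to the consensus this enzyme uses. LRP1, an uptake receptor for ADAMTS proteases, rose by 1.07 ± 0.32 next to hepatic tissue (adjusted p = 0.0341). That call was lost without any 1 of monoculture replicates 1, 3 and 4 and hepatic replicates 1 and 3 (up to 0.0911). It was also lost with no low-count filter (0.0642). Next to cardiac tissue LRP1 was at 1.12 ± 0.32 and did not pass (adjusted p = 0.0621). Between the co-cultures it was at 0.05 (adjusted p = 0.955). The activating convertase FURIN, at means of 254, 259 and 245 CPM, and TIMP3, the tissue inhibitor of ADAMTS proteases, at 45.4, 48.8 and 34.2, passed in no comparison.

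ADAMTS-like proteins share the ancillary domains but have no protease. Of 6 tested, ADAMTSL1 rose and PAPLN fell next to hepatic tissue (median 0.06), a share near the 28.0% of all genes called. ADAMTSL1, punctin-1, read 22.6, 23.9, 16.5 and 22.5 CPM in the monoculture, 44.4, 44.6, 48.2 and 44.0 beside hepatic tissue and 28.0, 27.3, 30.5 and 27.4 beside cardiac tissue. The 3 groups did not overlap. It rose by 1.08 ± 0.10 (adjusted p = 9.7e-07) next to hepatic tissue and by 0.40 ± 0.10 (adjusted p = 0.0228) next to cardiac tissue, the latter lost without monoculture replicate 3 or cardiac replicate 1, 2 or 3 (up to 0.0770). PAPLN, papilin, was at 4.54 to 11.7 CPM in the monoculture, 1.09 to 1.68 in the hepatic and 3.85 to 8.03 in the cardiac co-culture, lowest in all hepatic libraries as ADAMTS9 was (-2.54 ± 0.30, adjusted p = 1.78e-05). Between the co-cultures PAPLN was higher next to cardiac tissue by 1.96 ± 0.30 (adjusted p = 0.00055), and ADAMTSL1 was at -0.68 ± 0.10 (adjusted p = 0.000264).

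The membrane-bound ADAM relatives, 9 of them tested, rose in 3 cases and fell in 0 next to hepatic tissue (median 0.21). Of all genes tested, 28.0% were called there, 14.4% higher and 13.6% lower. The ADAM rises were led by ADAM15 (0.39 ± 0.07, adjusted p = 0.00066) and ADAM8 (0.89 ± 0.15, adjusted p = 0.00116). ADAM9 was at 0.21 ± 0.06 (adjusted p = 0.0218), a call lost without any 1 of monoculture replicates 1, 3 and 4 and hepatic replicates 2 and 4 (up to 0.0707). Next to cardiac tissue ADAM8 rose by 0.66 ± 0.15 (adjusted p = 0.025), lost without any 1 of monoculture replicates 1, 3 and 4 and cardiac replicates 1, 2 and 3 (up to 0.0808).

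**Figure D4:**
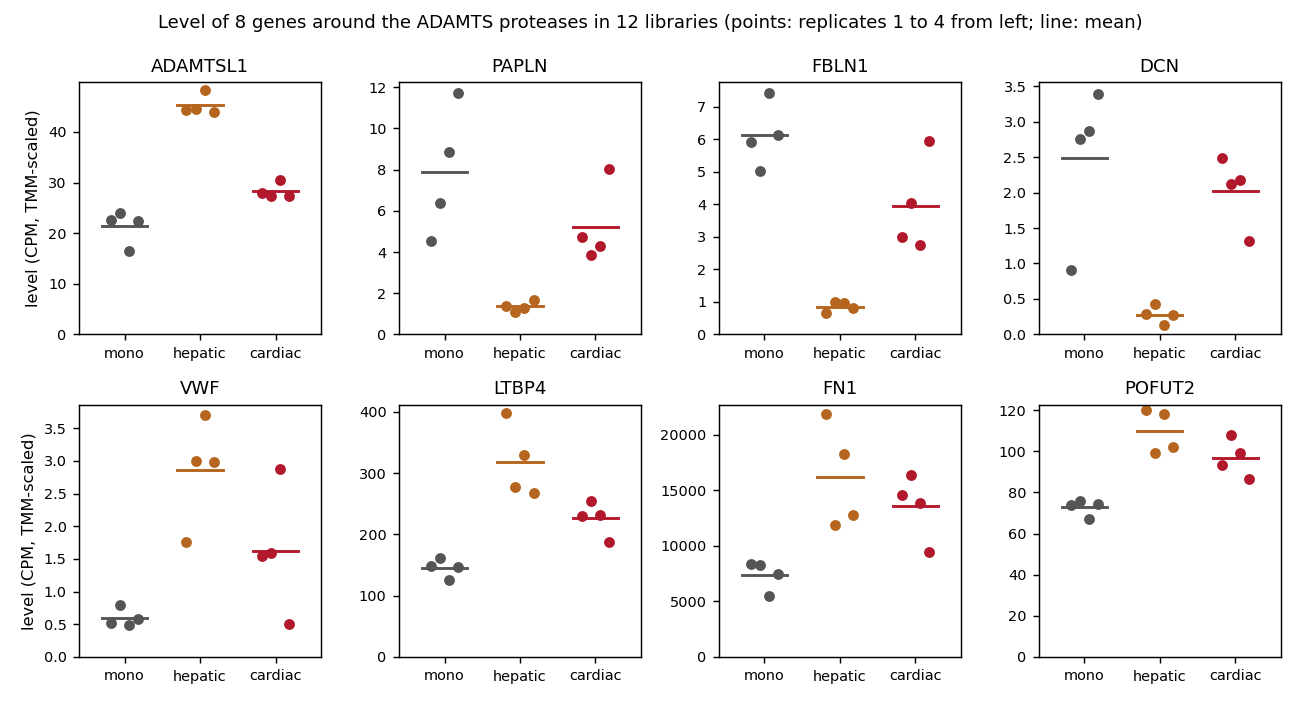
Level in CPM of 8 genes around the ADAMTS proteases in each of the 12 libraries, with replicates 1 to 4 from left to right and a line at the group mean. PAPLN, FBLN1 and DCN are lowest in all 4 hepatic libraries, whereas ADAMTSL1, VWF, LTBP4, FN1 and POFUT2 are above the monoculture there.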

How the data were processed

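The authors deposited 1 table of raw read counts for the genes of 12 RNA-seq libraries, with no normalization. Per the submitters' processing notes, DESeq2 1.42.0, featureCounts 2.0.6 and HISAT2 2.2.1 were used on GRCh38, without settings. Not given in the sources used here: annotation release, strand setting and handling of multi-mapping reads. Library kits with and without strand are both described in the labels, so antisense reads cannot be told apart; the ADAMTS9-AS1 exons that overlap ADAMTS9 belong to a gene with 0 to 14 counts. All 58735 identifiers matched GENCODE release 29, which gave symbols, coordinates and exon lengths.

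Genes past edgeR's low-count filter (17468, with 99.9% of counts) were fitted together in edgeR 4.0.16 (R 4.3.3; robust quasi-likelihood, TMM), with group as the only factor and a two-sided threshold of 0.05. The fit was tested on simulated data. Members and lists were chosen with earlier results of these data known. All 9 members were named, and from each other list the 3 called genes with the smallest adjusted p per comparison; genes with values outside this rule (such as VCAN, FBN1, COL1A1, FURIN, TIMP3 and single markers) were named after their values were seen. Alternatives were DESeq2 1.42.0, other scalings, no filter, a replicate block, a library-number block, 2-group fits, a CPM minimum of 0.5, a log2 minimum of 0.5, and leaving out each library. Sequences were read with Python 3.11.15 and Biopython 1.88.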

Additional observations from a re-analysis of the deposited data

Results flagged for a closer look

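ADAMTS1 in monoculture replicate 1, at 12.9 CPM, lay far from the other monoculture libraries, at 8.58 to 9.16. ADAMTS15 in cardiac replicate 4, at 63.5 CPM, lay far from the other cardiac libraries, at 44.1 to 46.9. Of 33 gene and group combinations examined, these 2 passed Dixon's 95% limit for 4 samples (0.829), where chance flags about 1 in 20.

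The effects of hepatic and cardiac tissue against the shared monoculture differed, by the cardiac against hepatic test, for ADAMTS9 (log2 difference 2.23), ADAMTS15 (0.74) and ADAMTS1 (-0.93).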

How the results depend on the processing

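Next to hepatic tissue 7 members were called. The replicate block gave 8, as did no low-count filter, each adding ADAMTS14 (adjusted p = 0.0351 and 0.0105), and leaving out single libraries gave 6 to 7. Next to cardiac tissue 0 were called, but DESeq2 gave 3, no filter 2, the replicate block 1 (ADAMTS14, adjusted p = 0.0304) and leaving out single libraries 0 to 1 (ADAMTS12 without cardiac replicate 4; the unlisted ADAMTS3 also passed there, at -0.87, adjusted p = 0.0357). Between co-cultures 3 were called, 3 with the replicate block and 2 with the library-number block, under which ADAMTS1 had adjusted p = 0.0572. Cardiac replicates 1 and 3 have library numbers 1 and 5, which no other library shares. With that block the cardiac effects therefore rest on cardiac replicates 2 and 4. Same-numbered libraries did not visibly deviate together from their group means. Correlations were -0.08 to 0.11 by replicate, 1 of 12 pairs over 0.1, and -0.05 to 0.09 by library number. Differently numbered libraries were not set beside them, so this cannot decide whether a number marks shared cultures. Directions turned for genes that were not called. With the library-number block, cardiac against monoculture, ADAMTS7 was at 0.03, ADAMTS3 at 0.01 and ADAMTS16 at 0.33; with the replicate block, cardiac against hepatic, ADAMTS3 was at -0.02. Leaving out single libraries, ADAMTS16 ranged from -0.31 to 0.02 (hepatic), -0.23 to 0.12 (cardiac) and -0.14 to 0.26 (between co-cultures), and ADAMTS3 from -0.41 to 0.30 between co-cultures; the cause was not tested. Upper-quartile scaling moved the share of higher calls over all genes next to cardiac tissue from 59.7% to 72.2%, and next to hepatic tissue from 51.5% to 59.9%. With the library-number block, calls next to cardiac tissue rest on cardiac replicates 2 and 4. The named ones were lost for ADAMTSL1, HAPLN3, SDC4, LTBP4 (adjusted p = 0.243), THBS1 (0.333), TFPI2, POFUT2 (0.26), ADAM8, VWF, TIE1, CAV1, S100A4 and AXL. So were those of LRP1 (0.137), ADAM9 (0.0595), TFPI2, COL1A2 and COL3A1 next to hepatic tissue and of LTBP4, HP and SERPINA1 between co-cultures. The replicate block ended those of LRP1 (0.0608), COL3A1, VWF (cardiac) and SERPINA1. The lowest member, ADAMTS13, rests on 1327 counts in all, which limits its precision.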
